A study of Homo sapiens with 3 samples.

Results

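The miR-30 family was measured in RNA recovered with Argonaute2 (Ago2) from Hep G2 cells, an established human liver cancer line. Its members were the 5 names hsa-miR-30a, hsa-miR-30b, hsa-miR-30c, hsa-miR-30d and hsa-miR-30e, taken exactly as the array annotation spells them from 851 human names on the array. Every sample was an Ago2 immunoprecipitate, and 10 ng of its RNA was labelled with Cy3 for an Agilent miRNA microarray. The non-treated group received no miRNA duplex, while the miR-195 and miR-497 groups were lipofected with 5 nM of a mimic of that miRNA and lysed after 24 h. Each group held 1 array, and all 3 arrays lay on 1 slide, so that no test between groups was possible and culture, immunoprecipitation, array and treatment cannot be told apart. No immunoprecipitate from cells given an unrelated duplex was analysed here, and the effect of transfection itself therefore cannot be told apart from that of either mimic.

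MicroRNAs are cut from hairpin transcripts, and 1 strand of the resulting duplex is usually kept by an Argonaute protein, of which Ago2 is the form able to slice a paired target. Bases 2 to 8 of the kept strand, the seed, do most of the pairing with messenger RNAs, so that miRNAs sharing a seed can bind many of the same transcripts. The miR-30 guide strands are such a family, known for restraining epithelial to mesenchymal transition and for abundant expression in many epithelial tissues.

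RefSeq gave guide sequences for 3 of the 5 members on GRCh38.p14, shown because they carry a common seed (in capitals) and yet gave very different signals. The first is listed at chr6:71403595-71403616 on the minus strand (MIR30A). The next is made from a pair of hairpins, at chr1:40757300-40757322 on the plus strand (MIR30C1) and chr6:71377003-71377025 on the minus strand (MIR30C2). The last lies at chr1:40754371-40754392 on the plus strand (MIR30E).
hsa-miR-30a: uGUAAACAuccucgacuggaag
hsa-miR-30c: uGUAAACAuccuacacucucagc
hsa-miR-30e: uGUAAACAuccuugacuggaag
Counted from 1 at the 5′ end, hsa-miR-30a and hsa-miR-30e differed by the single substitution C13U. The guide of hsa-miR-30c differed from that of hsa-miR-30a at 5 positions, C13A, G14C, G18C, G19U and A20C, and was 1 base longer. All these differences lay outside the seed. The members come from 3 loci. MIR30A and MIR30C2 were each other's nearest miRNA gene, and no gene span containing them was found in the RefSeq records consulted. MIR30C1 and MIR30E were neighbours inside the span of NFYC, and MIR30B and MIR30D were neighbours inside the span of ZFAT. Because the mature hsa-miR-30c of both its hairpins is identical, its signal cannot be assigned to a locus.

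Signals were background-subtracted Cy3 intensities in the scanner's units, averaged over the spots of a probe and summed over the probes of a name. Each member had 16 spots on every array, of which 10 to 16 were used after spots with an outlier flag were left out. The error given is the SD between spots of the same array, which covers technical error within the array and nothing of the variation between cultures. Signals of different miRNAs also reflect how well their probes hybridise, and shares of signal are not shares of molecules. Between 121 and 168 human miRNAs were well above background on an array, and the 75th percentile of the 183 probes detected on all arrays was 826.7 units in non-treated, 778.3 in miR-195 and 263.2 in miR-497. Before scaling, 116 of 118 human miRNAs measured on both arrays read lower in miR-497 than in non-treated, the exceptions being hsa-miR-923_v12.0 and hsa-miR-720, and 117 of 117 read lower than in miR-195. The geometric mean of 4 spike-in controls was 1621, 1284 and 1275 units in the same order, nearly equal in the transfected samples. Among miRNAs known from hepatocytes, hsa-miR-192 and hsa-miR-194 were detected on all 3 arrays and hsa-miR-122, the most abundant miRNA of liver tissue, on none. Of the names known from other cells, hsa-miR-142-3p and hsa-miR-142-5p, typical of blood cells, were detected on all arrays, whereas hsa-miR-223, hsa-miR-126, hsa-miR-1 and hsa-miR-133a were detected on none.

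All members but hsa-miR-30a, 4 of the 5, were well above background on each array. The signal of hsa-miR-30b was 302.3 ± 18.6 units in non-treated, 262.8 ± 22.0 in miR-195 and 88.7 ± 9.24 in miR-497 (spot SD, n = 1 array each, as for all values that follow). For hsa-miR-30d, its neighbour in the genome, the values were 264.3 ± 11.0, 266.6 ± 5.17 and 84.6 ± 9.13 units in the same order of arrays. Before scaling both members were about as bright in miR-195 as in non-treated and dim in miR-497.

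From the NFYC locus, hsa-miR-30e gave 283.2 ± 28.0, 315.4 ± 10.69 and 85.5 ± 8.46 units. Signals of hsa-miR-30c were 128.5 ± 26.9, 119.2 ± 17.8 and 32.1 ± 11.7 units, the lowest of the 4 detected members on every array. Its spots also scattered the most for its level, and on the miR-497 array the brighter of its 2 probes had 6 of 8 spots well above background.

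The guide of hsa-miR-30a was not detected. Its summed signal was -0.73 ± 2.69 units in non-treated, 3.05 ± 4.10 in miR-195 and -0.95 ± 2.74 in miR-497, and none of its spots was well above background. Each value lay below the median of that array's negative-control spots, 3.93, 3.64 and 4.92 units. The lowest signal among all detected names, human or not, was 11.13, 23.68 and 19.12 units and was taken as the bound for hsa-miR-30a. At that bound it would hold at most 1.12% of the family signal in non-treated, 2.40% in miR-195 and 6.17% in miR-497. The non-treated bound lay below an upper percentile of the negative-control spots, 11.8 units, and is not a firm detection limit. The probes for hsa-miR-30a thus read background on arrays where those for hsa-miR-30e, whose guide differs at 1 base, read 85.5 to 315.4 units.

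**Figure D1:**
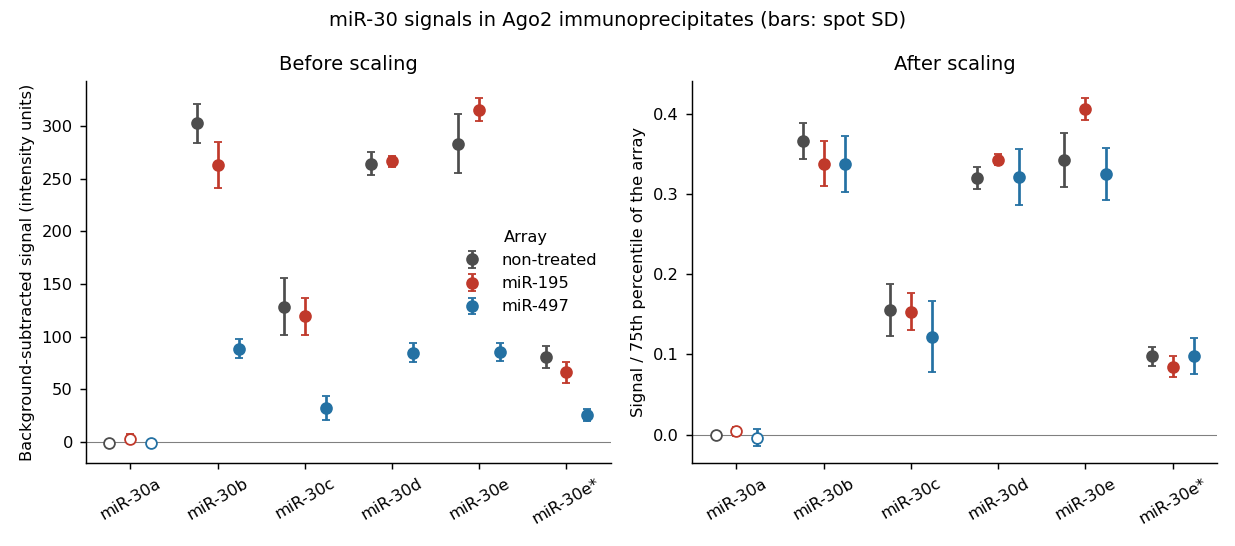
Summed signal of each miR-30 member and of hsa-miR-30e* on the 3 arrays, in intensity units (left) and relative to that array's 75th percentile (right); bars are the SD between spots and open points are not well above background. In miR-497 the points lie well below the others on the left, at 84.6 to 88.7 units for hsa-miR-30b, hsa-miR-30d and hsa-miR-30e, and close to them on the right.

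The probes of a member differed in brightness. Of the 3 probes for hsa-miR-30b, the brightest gave 257.1, 224.1 and 79.0 units in non-treated, miR-195 and miR-497, or 85.0%, 85.3% and 89.0% of the member's signal. Its second probe was detected in non-treated and miR-195 but not in miR-497, where it read 9.83 units, and its dimmest was detected on no array. A single probe likewise carried 85.9% to 90.5% of the hsa-miR-30c signal and 88.0% to 90.3% of the hsa-miR-30e signal. The signal of hsa-miR-30d was the most evenly split, with its brighter probe at 58.2%, 58.5% and 54.1%.

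**Figure D2:**
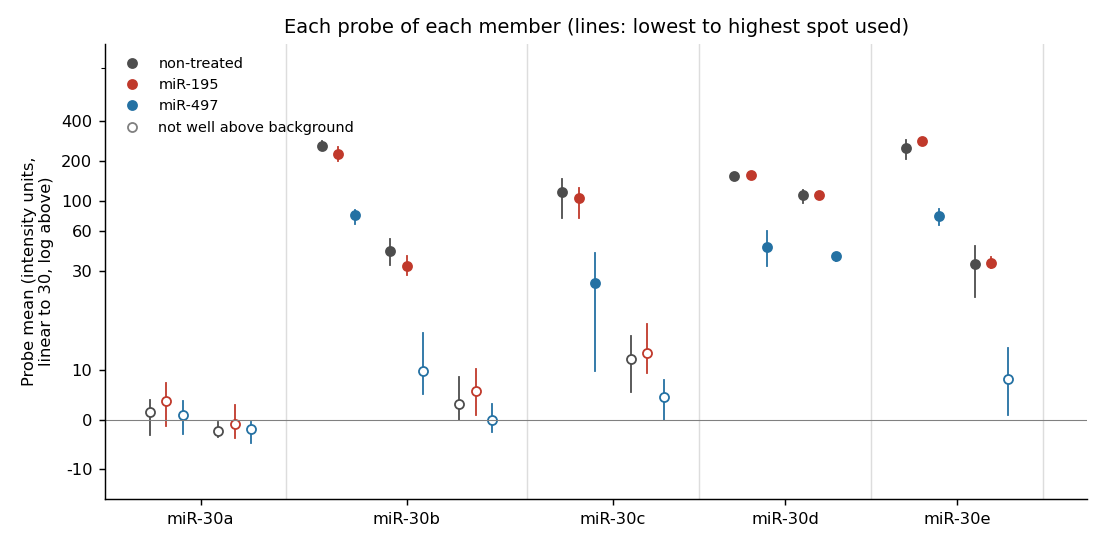
Mean signal of every probe of the 5 members on the 3 arrays, in intensity units on an axis that is linear to 30 and logarithmic above; lines run from the lowest to the highest spot used, and open points are not well above background. Both probes of hsa-miR-30a lie near 0, while both of hsa-miR-30d stay between 38.9 and 156.0 units.

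Of the 6 opposite strands, marked with an asterisk on the array, hsa-miR-30e* was the only one well above background, and it was so on all 3 arrays. Its sequence on GRCh38.p14 is chr1:40754413-40754434, plus strand, shown with its own seed in capitals beside that of hsa-miR-30a* (chr6:71403554-71403575, minus strand), which has the same seed and was not detected.
hsa-miR-30e*: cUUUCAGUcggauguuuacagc
hsa-miR-30a*: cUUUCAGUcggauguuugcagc
Signals of hsa-miR-30e* were 80.5 ± 10.2 units in non-treated, 66.0 ± 9.93 in miR-195 and 25.7 ± 5.93 in miR-497. The values of hsa-miR-30a*, hsa-miR-30b*, hsa-miR-30c-1*, hsa-miR-30c-2* and hsa-miR-30d* ranged from -3.41 to 6.55 units and none was detected. Neither opposite strand of the hsa-miR-30c hairpins gave a signal that could tell MIR30C1 from MIR30C2. At the MIR30A hairpin, guide and opposite strand were both at background, and at the MIR30E hairpin both were detected.

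The 5 members together gave 977.6 ± 44.5 units in non-treated, 967.1 ± 31.0 in miR-195 and 289.9 ± 19.6 in miR-497. That sum was 0.41%, 0.45% and 0.295% of the signal of all detected human miRNAs once the transfected miRNAs and their other strands were left out. For scale, the 9 names of the let-7 family measured in the same way held 1.91%, 1.96% and 1.51%, and the 3 names of the miR-29 family 2.45%, 2.51% and 2.05%. Measured in this way, the share of each family was lowest in miR-497. For miR-30 it was 0.593%, 0.65% and 0.745% after normexp, which adds an offset of 50 units to every spot. The software totals gave 0.503%, 0.614% and 0.522%, but hold units that do not come from the members' own probes. Totals of the members' own probes gave 0.375%, 0.419% and 0.269%, again lowest in miR-497.

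Shares within the family do not depend on the brightness of an array. The share of hsa-miR-30b was 30.9 ± 1.83% in non-treated, 27.2 ± 1.77% in miR-195 and 30.6 ± 2.87% in miR-497 (spot SD in percentage points). With hsa-miR-30e the order was the reverse, 29.0 ± 2.28%, 32.6 ± 1.23% and 29.5 ± 2.73%, so that hsa-miR-30b was the brightest member in non-treated and miR-497 and hsa-miR-30e in miR-195. Shares of hsa-miR-30d were 27.0 ± 1.45%, 27.6 ± 0.953% and 29.2 ± 2.83%, and those of hsa-miR-30c 13.1 ± 2.44%, 12.3 ± 1.65% and 11.1 ± 3.63%. The pair from the ZFAT locus, hsa-miR-30b with hsa-miR-30d, made up 58.0%, 54.7% and 59.8% of the family signal. The ranges of mean plus and minus 1 spot SD overlapped across the 3 arrays for hsa-miR-30c and hsa-miR-30d, and did not between non-treated and miR-195 for hsa-miR-30b or hsa-miR-30e. These shares rest on summing probe means: when the software's probe totals were summed instead, in which a probe with 5 spots on the array counts for less than a probe with 8, the share of hsa-miR-30b was 21.9%, 19.0% and 21.6%, and hsa-miR-30e was the brightest member on every array.

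**Figure D3:**
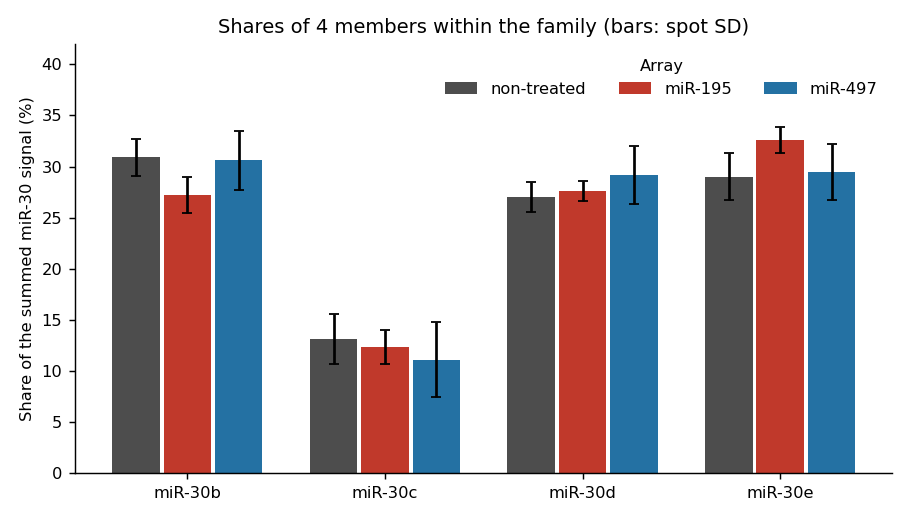
Share of the summed miR-30 signal (%) held by the 4 detected members on the 3 arrays, with the spot SD as bars. The shares of hsa-miR-30b, hsa-miR-30d and hsa-miR-30e lie between 27.0% and 32.6% and those of hsa-miR-30c between 11.1% and 13.1%, and the miR-195 array is lowest for hsa-miR-30b and highest for hsa-miR-30e.

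To ask whether loading Ago2 with either mimic went with a different miR-30 signal, each array was divided by its 75th percentile and differences were taken on the log2 scale. In miR-195 against non-treated, hsa-miR-30e was higher by 0.24 ± 0.15 (1.18-fold) and hsa-miR-30d by 0.099 ± 0.066 (1.07-fold). On the miR-195 array hsa-miR-30d rested on 10 of its 16 spots, and its difference was 0.067 with all spots kept. The differences of hsa-miR-30b, -0.12 ± 0.15, and of hsa-miR-30c, -0.021 ± 0.371, were within 1 spot SD, so that 2 of the 4 differences exceeded 1 spot SD beside 87 of 147 over all miRNAs (59.2%). None of these 4 members reached 2-fold, beside 3.4% of the 147 human miRNAs measured on both arrays. Their median difference was 0.039, with 2 higher and 2 lower, and that of all 147 was -0.009, with 72 higher and 75 lower.

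In miR-497 against non-treated, the 4 detected members differed by -0.12 ± 0.18 for hsa-miR-30b, -0.35 ± 0.61 for hsa-miR-30c, 0.008 ± 0.167 for hsa-miR-30d and -0.077 ± 0.202 for hsa-miR-30e. Each lay within 1 spot SD, while 58 of the 118 miRNAs (49.2%) did not. None reached 2-fold, beside 3.39% of 118 miRNAs. The median member difference was -0.097 and the median of all 118 was 0.028, with quartiles at -0.12 and 0.26.

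Between the transfected arrays, miR-497 against miR-195, hsa-miR-30e was lower by 0.32 on the log2 scale (-0.32 ± 0.15, 0.801-fold), the only one of the 12 member differences beyond 2 spot SDs. A difference beyond 2 spot SDs was found for 20 of the 117 miRNAs measured on both arrays (17.1%). The hsa-miR-30e difference was only just past that limit. It was -0.198 scaled on the median of the detected probes, -0.297 after quantile normalization or with all spots kept, and -0.291 with medians over spots. Without scaling it was -1.88, with spike-ins -1.87 and with the percentile of every probe -1.16, beside medians of all 117 of -1.54, -1.53 and -0.82. With normexp and its offset the hsa-miR-30e difference was of the opposite sign, 0.29, where the median of all 117 was 0.46. With the software totals it was 0.65, but its total on the miR-497 array holds the hsa-miR-30d total of 44.9 units. With the totals of its own probes it was -0.27. Under the main scaling the other members differed by -0.003 ± 0.193 for hsa-miR-30b, -0.33 ± 0.57 for hsa-miR-30c and -0.092 ± 0.158 for hsa-miR-30d. The median of the 4 was -0.21 beside 0.023 for all 117. All 4 were below 0 with this scaling, but hsa-miR-30b was above 0 under 8 other settings, at 0.008 to 0.67. For hsa-miR-30d the difference was 0.029 when scaled on the median of the detected probes and 0.52 with normexp. For hsa-miR-30c it was 0.70 with normexp, 2.92 with the software totals and 1.35 in the deposited table. The last 2 hold units of hsa-miR-30b on the miR-497 array. None reached 2-fold, beside 1.71% of all. The 3 comparisons share arrays and are not independent of each other.

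**Figure D4:**
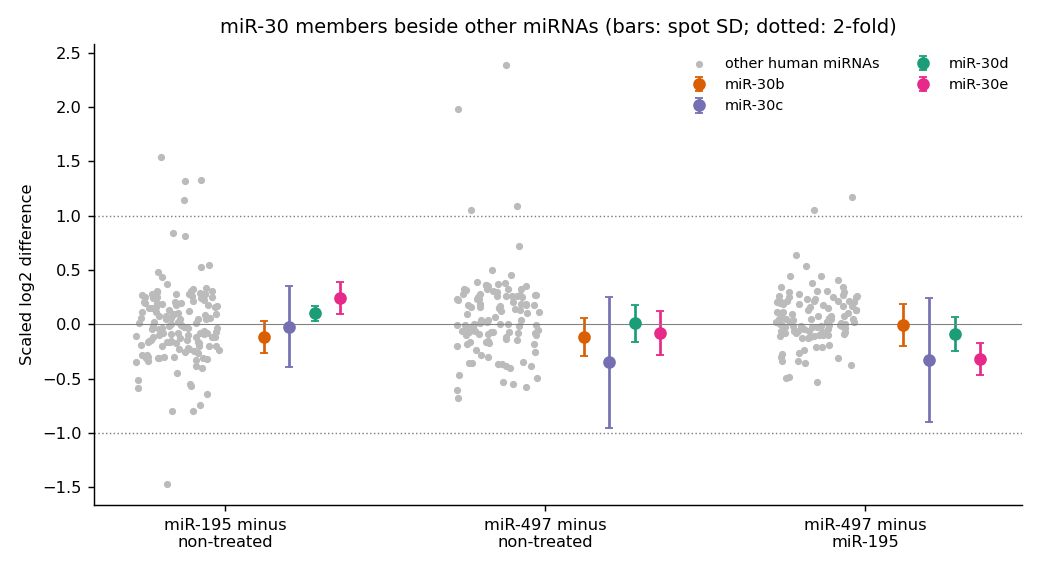
Scaled log2 differences of 4 miR-30 members (coloured, with spot SD) and of the other human miRNAs measured on both arrays (grey) in the 3 comparisons; dotted lines mark 2-fold. All member differences lie between -0.35 and 0.24, inside the spread of the grey points.

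For each member, the order of the scaled levels over the arrays followed from these differences. The level of hsa-miR-30e was highest on the miR-195 array, followed by the non-treated and the miR-497 array, and the step from non-treated to miR-497 was within 1 spot SD. That of hsa-miR-30d was highest in miR-195 and lowest in non-treated, and only the difference between these ends exceeded 1 spot SD, while no difference of hsa-miR-30b or hsa-miR-30c did. Where 2 probes of a member could be compared, they did not always share a direction: the probes of hsa-miR-30d gave -0.099 ± 0.287 and 0.15 ± 0.14 in miR-497 against non-treated. The opposite strand hsa-miR-30e* differed by -0.20 ± 0.28, 0.004 ± 0.380 and 0.20 ± 0.40 in the 3 comparisons, each within 1 spot SD.

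Summed over the family, the difference was 0.071 ± 0.080 in miR-195 against non-treated, -0.10 ± 0.12 in miR-497 against non-treated and -0.17 ± 0.11 in miR-497 against miR-195. Corresponding sums were -0.026 ± 0.074, 0.064 ± 0.122 and 0.090 ± 0.126 for let-7, and -0.036 ± 0.096, 0.12 ± 0.09 and 0.15 ± 0.09 for miR-29. The miRNAs with the most similar pair of differences against the non-treated array, of 113 measured on all arrays, were hsa-miR-142-5p (0.013 and -0.091), hsa-miR-532-5p (0.051 and -0.16) and hsa-miR-146b-5p (0.072 and -0.023). Their Euclidean distances from the family sum were 0.059, 0.060 and 0.079 over these 2 differences.

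The sign of the family sum depended on the scaling in both comparisons with non-treated. In miR-497 against miR-195 it stayed negative under every scaling tried, from -1.74 to -0.053. Scaled on the median of the detected probes, the family sum was 0.003 in miR-497 against non-treated, and after quantile normalization it was -0.025 in miR-195 against non-treated. Scaled to the 75th percentile of every non-control probe, it was -0.47, -1.49 and -1.02 in the 3 comparisons. Without scaling the family sum differed by -0.016, -1.75 and -1.74 in the 3 comparisons, beside medians of -0.096, -1.62 and -1.54 for all miRNAs, and all 4 detected members were past 2-fold lower on the miR-497 array in both of its comparisons. With a normexp background and an offset the family sum was higher on the miR-497 array, by 0.67 against non-treated and by 0.61 against miR-195, where the medians of all miRNAs were 0.46 and 0.46. These sums include the offset of 50 units added to every spot. Without it, the summed probe means of the whole family were 289.9 units on the miR-497 array.

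The totals per miRNA that the scanner software wrote, which equal the deposited normalized values after log2, gave another picture of the family. For hsa-miR-30b the total was 434.6, 464.9 and 142.1 units, of which its own significant probes accounted for 97.1, 82.7 and 26.2 units. The remainder equalled the total of hsa-miR-302b on the non-treated array and of hsa-miR-301b on the other arrays, the detected name just before it in order, to within 0.0004 units. On the miR-497 array the total of hsa-miR-30c was 156.8 units, its own probes giving 14.6, and that of hsa-miR-30e 85.9 units, its own probes giving 41.0. For hsa-miR-30d the total came from its own probes on every array, at 137.3, 137.2 and 44.9 units. In the deposited log2 values hsa-miR-30c therefore stood at 6.06, 5.94 and 7.29, highest on the miR-497 array, where its own probes were dimmest.

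**Figure D5:**
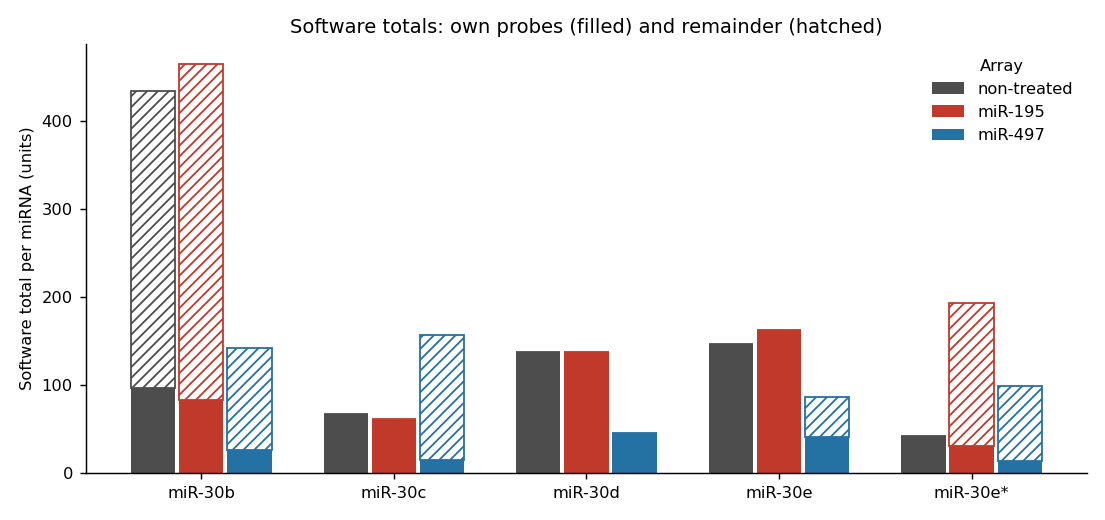
Software total per miRNA (units) for 4 members and hsa-miR-30e* on the 3 arrays; filled bars are the totals of the name's own significant probes and hatched bars the remainder. Own probes gave 17.8% to 22.3% of the hsa-miR-30b total and 100% of the hsa-miR-30d total.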

How the data were processed

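The 3 deposited scanner files held spot intensity, background-subtracted and detrended within each array by Agilent Feature Extraction 10.7.1.1 per the file headers, with no scaling between arrays. Flags for outlier and well-above-background spots and the software's totals came from the same files. The authors also deposited a table of log2 values from GeneSpring, whose header names a floor of 1 and a 75th percentile shift, although the values equalled log2 of the unscaled software totals, floored at 1, for the names examined. The methods state that samples were run more than once, and only these 3 arrays were analysed here. Groups were taken from the labels.

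Control spots and spots with an outlier flag were left out of 15024 non-control spots per array, and none was saturated. Spot signals were averaged per probe, summed per name, divided by the array's 75th percentile over the 183 probes detected on all arrays, and converted to log2. A probe was detected when over 50% of its used spots were well above background, and a name when at least 1 probe was. Spot SDs were carried through sums, shares and log2 differences by the delta method. Differences were described by a size of 2-fold over human names detected on both arrays, without the transfected miRNAs and their passenger strands. No test was run between groups of 1 array, and precision is limited by this number of arrays. All arrays shared 1 slide, which could not be fitted as a block.

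Named were all 5 members, the 6 opposite strands, the sums of the let-7 and miR-29 families, and the 3 miRNAs most like the family sum. The members and lists were chosen with earlier results of these data known. Sequences and loci were copied from RefSeq tables on GRCh38.p14, while the file headers name hg19. Of the 5 guides, 3 matched. Alternatives changed the scaling, background, probe summary and treatment of spots, with limma 3.58.1 for normexp. Python 3.11.15, numpy 2.4.6, pandas 2.3.3, matplotlib 3.10.9 and R 4.3.3 were used. The calculation was tested on simulated data in which few miRNAs were changed. In a simulation with more changed miRNAs, the percentile used for scaling itself moved. All estimates were then shifted downward, by more than most of the member differences given above. The scaling is therefore sensitive to many or bright changes.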

Additional observations from a re-analysis of the deposited data

Results flagged for a closer look

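The software's totals per miRNA, used above only as an alternative to the main values, exceeded their non-treated value by over 2-fold in 3 cases. The total of hsa-miR-30e* was 193.2 units in miR-195 and 99.11 in miR-497, against 41.79 in non-treated (4.62-fold and 2.37-fold). Its own significant probes gave 30.83 and 13.21 of those units, and the remainder equalled the total of hsa-miR-30e on the same array, 162.3 and 85.89 units. The total of hsa-miR-30c was 156.8 units on the miR-497 array against 66.74 on the non-treated array (2.35-fold), with 14.64 units from its own probes and a remainder equal to the hsa-miR-30b total of 142.1 units. From the probe means, hsa-miR-30e* differed by -0.20 ± 0.28 and 0.004 ± 0.380 and hsa-miR-30c by -0.35 ± 0.61 on the scaled log2 scale in the same comparisons.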

How the results depend on the processing

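Of the recomputed family sums, member medians, counts and shares, 123 stayed within 1 spot SD (counts within 1.5 times) and 105 did not, and the latter are given here. The cause was not tested except where stated. For differences the order is miR-195 against non-treated, miR-497 against non-treated and miR-497 against miR-195. Scaled to the 75th percentile of every non-control probe, the family sum was -0.47, -1.49 and -1.02, the member median -0.50, -1.48 and -1.05, and 4 and 2 members passed 2-fold in the last 2 comparisons. Without scaling the sum was -0.016, -1.75 and -1.74, the median in the last 2 was -1.75 and -1.77, and 4 members passed 2-fold in each of these. With spike-in scaling the sum was 0.32, -1.41 and -1.73, the median 0.29, -1.40 and -1.76, and again 4 and 4 members passed. Quantile normalization moved the first sum to -0.025 and scaling on the median of the detected probes the last to -0.053. Normexp moved the sums of the last 2 comparisons to 0.67 and 0.61 and the medians to 0.59 and 0.59. The software totals gave sums of 0.16, 0.78 and 0.62, medians of 0.46 and 0.30 in the last 2 and 1 member past 2-fold in each of these. The deposited table gave sums of -0.87 and -0.94 and medians of -1.19 and -1.27 in the last 2, with 3 members past 2-fold in each. The median of all miRNAs in miR-497 against non-treated, 0.028 with the scaling used, was -1.36 with the percentile of every probe, -1.62 without scaling, -1.28 with spike-ins, -0.12 with quantiles, 0.13 with the median, 0.46 with normexp, 0.21 with the software totals and -1.43 in the deposited table, and each member value is to be read against it. In miR-195 against non-treated that median moved from -0.009 to -0.55 with the percentile of every probe, 0.24 with spike-ins and -0.20 with quantiles.

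Shares within the family follow in the order hsa-miR-30b, hsa-miR-30c, hsa-miR-30d, hsa-miR-30e. The software totals and the deposited table both gave 55.3%, 8.49%, 17.5% and 18.7% in non-treated, 56.3%, 7.43%, 16.6% and 19.7% in miR-195, and 36.5%, 10.5% and 20.0% for the last 3 in miR-497. These totals hold units that do not come from the member's own probes, as described above. The brightest probe alone gave hsa-miR-30b 33.0%, 29.1% and 34.3% on the non-treated, miR-195 and miR-497 arrays, hsa-miR-30d 19.8%, 20.2% and 19.9%, and hsa-miR-30e 32.0%, 36.5% and 33.5%. With that setting hsa-miR-30d loses a larger part of its signal than the other detected members. Summing the software totals of a member's own probes, an alternative chosen after seeing the data, gave hsa-miR-30b 21.9%, 19.0% and 21.6%, hsa-miR-30d 30.6%, 30.7% and 33.0%, and hsa-miR-30e 32.8%, 36.3% and 33.3%, where a probe total was 0.0643 to 0.0664 times the probe mean for each spot the probe has on the array. Normexp gave hsa-miR-30c 15% and 15.9% on the miR-195 and miR-497 arrays, hsa-miR-30d 23.6%, 23.6% and 22.0%, and hsa-miR-30e 24.5%, 26.8% and 21.4%. It adds an offset of 50 units to every spot, also to those of the undetected hsa-miR-30a, and these shares include that offset. The family's share of the detected human signal on the non-treated, miR-195 and miR-497 arrays was 0.503%, 0.614% and 0.522% from the software totals, 0.492%, 0.593% and 0.512% from the deposited table, 0.593%, 0.65% and 0.745% with normexp and 0.375%, 0.419% and 0.269% from own probe totals, 0.443% and 0.481% on the first 2 with the brightest probe, and 0.434% on the miR-195 array with all spots kept.

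Single members changed sign under several of these settings. In miR-497 against non-treated, hsa-miR-30c was 2.88 with the software totals, 1.23 in the deposited table and 0.72 with normexp, and in miR-195 against non-treated hsa-miR-30e* was 2.30 and 2.21 with the first 2 of these. The hsa-miR-30e difference in miR-497 against miR-195 was 0.65 with the software totals and 0.29 with normexp, but -0.27 with own probe totals. In all, 5 names of the family and its opposite strands were detected on each array, and 3 on the miR-497 array when every spot of the probe was required above background. No array could be left out, since each group held 1. No paired analysis was possible because each group held 1 array. Member signals before scaling lay closest to background in miR-497, which limits hsa-miR-30c and hsa-miR-30e* there.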
